A study of Homo sapiens with 33 samples.

Results

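The MARCH genes encode membrane-associated ubiquitin ligases that share a RING-CH domain, and 7 of them, MARCH3 to MARCH9, were followed here through deletions of GABPB1 in UM-UC-3 and A-375 cells. They were chosen by name. The deposited tables hold them as the dates 3-Mar, 4-Mar, 5-Mar, 6-Mar, 7-Mar, 8-Mar and 9-Mar, because a spreadsheet had rewritten MARCH symbols. All 7 had 1 entry in each of 3 tables, out of 13310 entries for UM-UC-3 total knockout, 14160 for A-375 long-form knockout and 14332 for A-375 total knockout. In every table the 7 entries stood together between MAPT and MARCKS in the alphabetical list of names. The dates 1-Mar and 2-Mar were left out because the unrelated genes MARC1 and MARC2 give the same text.

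GABP is a transcription factor in which GABPA, a DNA-binding protein of the ETS family, joins a B subunit, GABPB1 or GABPB2. The UM-UC-3 line comes from a bladder cancer and the A-375 line from a melanoma. The total knockout (B1TKO) pooled clones with exons 2 to 9 of GABPB1 deleted (B1KO) and clones with exon 2 deleted (B1X2KO). It comprised 9 libraries from 8 clones in UM-UC-3 and 12 libraries from 9 clones in A-375. The long-form knockout (B1LKO) had exon 9 deleted, in 2 libraries from 2 A-375 clones. Controls in the series were clones edited at ROSA26 (3 UM-UC-3 and 4 A-375 libraries) and parental cells (1 UM-UC-3 and 2 A-375 libraries). All edited lines were grown from single cells sorted for GFP after transfection of a Cas9 plasmid.

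Each gene had 1 fitted log2 fold change of knockout over control, with its standard error (SE), and 1 mean normalized count over all libraries of the fit. No values per library were used here, so the spread between libraries is seen only through the SE, and the depth of each library is unknown. The tables are named for parental controls, but the use of the ROSA26 clones is not stated in the sources used here. A UM-UC-3 value may therefore rest on 1 control library. Labels do not say that several libraries of 1 clone are separate cultures, so the authors' p-values may in part measure technical spread. As a check of the deletions, GABPB1L, the long splice form, had a log2 fold change of -12.60 ± 0.71 (SE) in UM-UC-3 total, -12.79 ± 1.47 in A-375 long-form and -10.60 ± 0.70 in A-375 total knockout cells in the authors' deposited table. GABPB1S, the short form, was lower in UM-UC-3 total (-9.86 ± 2.70) and A-375 total (-9.81 ± 0.72) and higher in A-375 long-form knockout cells (13.95 ± 1.04; the authors' deposited tables). The entry GABPB1L-DEX2 was higher in both total knockouts, by 11.82 in UM-UC-3 (adjusted p 1.98e-13) and 13.61 in A-375 (adjusted p 3.74e-09; the authors' deposited tables). GABPB1S-DEX2 was higher in UM-UC-3 total (10.15 ± 1.62) and A-375 total (12.36 ± 1.88) and lower in A-375 long-form knockout cells (-12.00 ± 1.48; the authors' deposited tables). The DEX2 entries of GABPB1 were thus present in the total knockouts and near 0 in the controls of those fits. The signs also place GABPB1S near 0 in the controls of the A-375 long-form fit and in the knockout of the A-375 total fit, and GABPB1S-DEX2 the other way round, which was not resolved here. These sizes are not interpretable as folds, since 1 of the groups was close to 0. GABPB2, the other B subunit, rose by 2.49 ± 0.20 in UM-UC-3 total and 1.81 ± 0.32 in A-375 total knockout cells, and had 0.29 ± 0.26 in A-375 long-form (the authors' deposited tables).

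Cell type markers separated the lines in part. Of 10 melanoma markers, 5 reached a mean of 100 normalized counts in UM-UC-3 and 6 in each A-375 table, and their summed mean was 0.0929% of the UM-UC-3 table, against 0.302% and 0.284% of the A-375 long-form and total tables. Of 12 urothelial markers, 5 reached it in UM-UC-3 (KRT7, KRT8, KRT18, GATA3 and PPARG) and 4 of these 5, all but KRT7, in A-375. AXL made up most of the UM-UC-3 melanoma sum, with a mean of 38279 normalized counts, against 26848 and 6942 in A-375 long-form and total. SOX10 had 93.6 in UM-UC-3, against 42039 and 14704, and CSPG4 had 243, against 84105 and 30709. DCT reached 100 in UM-UC-3 only. The fits were scaled separately. In UM-UC-3 total knockout cells 4 of 8 measured melanoma and 5 of 6 measured urothelial markers were called, against 31.1% of all genes. NGFR (2.35 ± 0.75), DCT (2.20 ± 0.54), MITF (1.47 ± 0.30) and PPARG (1.15 ± 0.32) were higher in the authors' deposited table. KRT7, GATA3 and UPK1A were higher too, while AXL (-0.65 ± 0.10) and KRT18 (-0.67 ± 0.20) were lower there. No marker of either list was called in either A-375 table by the authors' DESeq2 test. In A-375 total knockout cells 2 melanoma markers and 1 urothelial marker had an unadjusted p under 0.05, and 0 of either list did in A-375 long-form. The part of these markers in the values of the MARCH genes was not tested.

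Ubiquitin ligases pass ubiquitin from a conjugating (E2) enzyme to a target protein. Most MARCH proteins sit in membranes with their RING-CH domain in the cytosol and send other membrane proteins to the lysosome or the proteasome. MARCH5 works on the outer mitochondrial membrane and MARCH6 in the endoplasmic reticulum (ER). MARCH3, MARCH8 and MARCH9 work on endosomes, lysosomes and the cell surface, and MARCH4 in the Golgi and endosomes. MARCH7, also known as axotrophin, lacks the membrane spans of its relatives.

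The genes lie apart in the genome (GENCODE 29, hg38). MARCH3 lies on chromosome 5 from 126867714 to 127030808 and MARCH6 on the same chromosome from 10353703 to 10440388. MARCH4 spans 216257865 to 216372027 and MARCH7 159712457 to 159771027 on chromosome 2. MARCH5 spans 92291163 to 92353964 and MARCH8 45454585 to 45594906 on chromosome 10. MARCH9 spans 57755098 to 57760407 on chromosome 12. Each had 1 value per table, with no values by exon.

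Promoter sequences are shown for the 3 genes that passed the authors' test in 1 of the tables (MARCH3, MARCH8 and MARCH9) and for MARCH5, whose estimates were the closest to 0 in both A-375 tables. They are RefSeq sequences of GRCh38.p14, from 250 bases before to 50 bases after the start, written 5′ to 3′ on the gene's strand. The places are chr12:57754853-57755152 (plus strand) for MARCH9, chr5:127030509-127030808 (minus) for MARCH3, chr10:45594858-45595157 (minus) for MARCH8 and chr10:92290917-92291216 (plus) for MARCH5. For MARCH8 the first of 2 listed promoters is shown. Capitals mark the ETS motif CCGGAA.
MARCH9: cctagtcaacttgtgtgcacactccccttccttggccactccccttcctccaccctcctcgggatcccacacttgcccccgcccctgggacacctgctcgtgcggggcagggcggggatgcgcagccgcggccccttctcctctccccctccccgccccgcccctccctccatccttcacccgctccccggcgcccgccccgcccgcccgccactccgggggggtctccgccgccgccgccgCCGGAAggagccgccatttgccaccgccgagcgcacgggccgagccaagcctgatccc
MARCH3: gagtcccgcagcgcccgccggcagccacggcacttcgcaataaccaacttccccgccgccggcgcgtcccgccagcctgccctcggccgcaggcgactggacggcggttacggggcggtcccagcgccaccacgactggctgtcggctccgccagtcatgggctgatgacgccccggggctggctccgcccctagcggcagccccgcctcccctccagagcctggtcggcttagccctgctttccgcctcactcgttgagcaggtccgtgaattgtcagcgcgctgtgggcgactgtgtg
MARCH8: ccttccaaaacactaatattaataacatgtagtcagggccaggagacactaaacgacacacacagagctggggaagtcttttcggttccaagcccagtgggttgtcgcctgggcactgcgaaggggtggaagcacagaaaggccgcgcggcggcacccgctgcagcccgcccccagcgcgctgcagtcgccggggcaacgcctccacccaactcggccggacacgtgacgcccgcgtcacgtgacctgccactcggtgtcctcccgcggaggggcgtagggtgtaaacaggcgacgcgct
MARCH5: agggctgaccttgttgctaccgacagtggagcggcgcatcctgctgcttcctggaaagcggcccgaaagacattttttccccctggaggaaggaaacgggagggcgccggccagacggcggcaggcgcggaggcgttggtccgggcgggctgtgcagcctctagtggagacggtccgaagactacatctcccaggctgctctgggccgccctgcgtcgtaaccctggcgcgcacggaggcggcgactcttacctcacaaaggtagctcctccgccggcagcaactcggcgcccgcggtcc

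Both strands were searched for CCGGAA and for the longer ETS consensus CCGGAAGT, which contains it. Shorter ETS motifs were not searched for. Promoter entries were listed for 6 of the 7 members, 8 entries in all. MARCH6 had none. CCGGAA was found in 1 member, MARCH9, where its first base lies 8 bases before the start. The consensus was found in 0 of the 6. Among all 27305 genes with promoters of the same length, 20.1% held CCGGAA and 4.95% the consensus in at least 1 entry. These matches describe letters in a short window and say nothing of binding.

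In UM-UC-3 total knockout cells, 2 of the 7 MARCH genes passed an adjusted p of 0.05, MARCH8 higher and MARCH3 lower. Over all genes there, 31.1% passed (17% higher and 14.2% lower), so a share of 28.6% of the members was close to the background. In A-375 total knockout cells 1 of 7 passed, MARCH9, which was lower. There the background was 10.8% (5.74% lower), against 14.3% of the members. In A-375 long-form knockout cells 0 of 7 passed the authors' DESeq2 test, and 1 had an unadjusted p under 0.05, with a background of 0.904%. By the q-value 3 of 7 passed in UM-UC-3 (background 41.4%), 0 of 7 in the long-form knockout (background 0.961%) and 1 of 7 in the A-375 total knockout (background 15.2%). The median log2 fold change of the 7 genes was -0.07 in UM-UC-3 total, -0.12 in A-375 long-form and 0.02 in A-375 total knockout cells, against 0.03, 0.02 and -0.05 over all genes of the same tables.

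**Figure D1:**
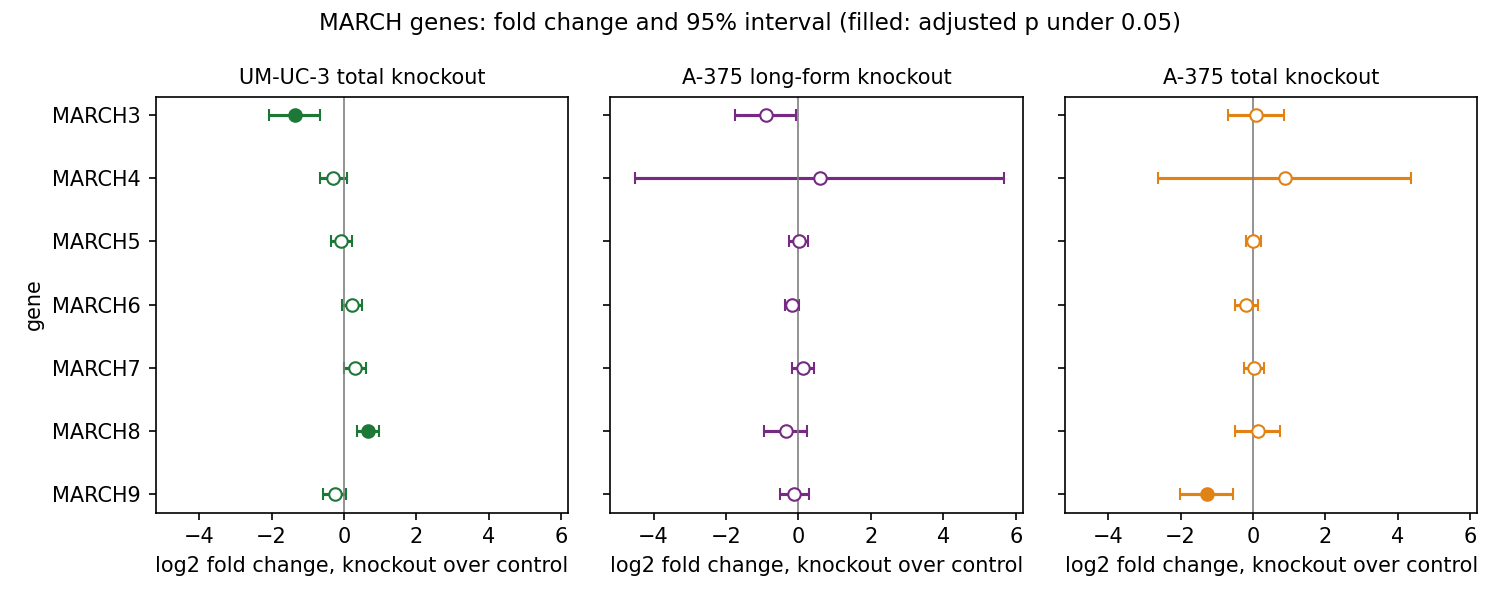
Log2 fold change of knockout over control for each MARCH gene (points) with its 95% interval (bars), 1 panel for each knockout. Filled points, MARCH3 at -1.36 and MARCH8 at 0.66 in UM-UC-3 and MARCH9 at -1.28 in A-375 total, passed an adjusted p of 0.05, and the intervals of MARCH4 in A-375 are the widest.

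MARCH3, an endosomal ligase known to act on cytokine receptors, fell in UM-UC-3 total knockout cells. Its log2 fold change was -1.36 ± 0.36 (SE; adjusted p 0.00119; the authors' deposited table), which is 0.389 times the control level (95% interval 0.239 to 0.633). The mean over the libraries of the fit was 743 normalized counts in the authors' deposited table. With 1 parental control assumed, this implies 642 normalized counts in the knockout, against 1649 in the control. With all 4 control libraries assumed, it implies 501 in the knockout, against 1287 in the controls. In A-375 the gene was near the bottom of the measured range, with means of 53.5 in the long-form and 20.9 in the total knockout of the authors' deposited table. Its log2 fold change there was -0.90 ± 0.43 in the long-form knockout (p 0.0354, adjusted p 0.420; the authors' deposited table). In the A-375 total knockout it was 0.08 ± 0.39 (adjusted p 0.927; the authors' deposited table), with a 95% interval from -0.69 to 0.84.

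MARCH8, which is known to remove the transferrin receptor and other proteins from the cell surface, rose in UM-UC-3 total knockout cells. Its log2 fold change was 0.66 ± 0.15 (adjusted p 0.000166; the authors' deposited table), or 1.58 times the control level (95% interval 1.29 to 1.94). The table mean was 541 normalized counts, which implies 562 in the knockout and 355 in the control with 1 parental library assumed, or 610 in the knockout and 386 in the controls with 4. MARCH8 was not called in either A-375 table. It had -0.36 ± 0.30 in long-form (adjusted p 0.670) and 0.13 ± 0.32 in total knockout cells (adjusted p 0.839; the authors' deposited table). The 95% interval in the A-375 total knockout, -0.50 to 0.75, includes the value seen in UM-UC-3.

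MARCH9, a ligase of the Golgi and lysosomes known to act on MHC class I and adhesion proteins, fell in A-375 total knockout cells. Its log2 fold change was -1.28 ± 0.38 (adjusted p 0.0122; the authors' deposited table), or 0.412 times the control level (95% interval 0.247 to 0.686). The table mean of 276 normalized counts implies 230 in the knockout and 558 in the controls with 2 parental libraries assumed, or 187 in the knockout and 455 in the controls with 6 control libraries. In UM-UC-3 total knockout cells the log2 fold change was -0.25 ± 0.16 (adjusted p 0.225; the authors' deposited table), and in A-375 long-form knockout cells it was -0.12 ± 0.21 (adjusted p 0.856). The mean of MARCH9, which pools knockout with control libraries, differed more between the A-375 tables. The A-375 long-form table held 4.67 times the normalized count of the A-375 total table for MARCH9, while this ratio was 2.03 to 2.84 for the other 6 genes and 2.86 at the median of all genes. The fall of MARCH9 in the total knockout libraries is part of this ratio. Implied control levels were 1316 in long-form and 455 in total with 6 control libraries assumed, or 1344 and 558 with 2.

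The ligases of the mitochondrion and the ER had 95% intervals that included 0 in all 3 tables. MARCH5, which is known to control mitochondrial fission and antiviral signalling, had -0.07 ± 0.15 in UM-UC-3 total, 0.00 ± 0.13 in A-375 long-form and 0.00 ± 0.11 in A-375 total knockout cells in the authors' deposited table (adjusted p 0.748, 0.997 and 0.995). Its 95% intervals lay between -0.36 and 0.27 in all 3 tables. MARCH6, a ligase of ER-associated degradation that acts on squalene epoxidase, had 0.22 ± 0.14 in UM-UC-3 total, -0.17 ± 0.10 in A-375 long-form and -0.18 ± 0.17 in A-375 total knockout cells in the authors' deposited table. The adjusted p-values were 0.224, 0.506 and 0.523. MARCH6 was the member with the highest mean normalized count in each table (9293, 14152 and 4989 in the authors' deposited table). Larger shifts than about 0.51 in either direction lay outside the intervals of MARCH6 in all 3 tables.

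MARCH7 had 0.31 ± 0.16 in UM-UC-3 total (adjusted p 0.123), 0.12 ± 0.15 in A-375 long-form (0.795) and 0.02 ± 0.14 in A-375 total knockout cells (0.942) in the authors' deposited table. The UM-UC-3 value was on the edge, with an unadjusted p of 0.0508 and a q-value of 0.0497 in the authors' deposited table. MARCH7 shares 2398 exonic bases with CD302, a gene on the opposite strand. CD302 had 0.57 ± 0.63 in UM-UC-3 total knockout cells (adjusted p 0.527; the authors' deposited table). The library kit keeps the strand, but the sources used here do not say whether counting did, so reads of both genes may not be told apart.

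MARCH4 had the least certain values of the family in A-375. It had -0.29 ± 0.19 in UM-UC-3 total (adjusted p 0.228), 0.58 ± 2.60 in A-375 long-form (0.951) and 0.87 ± 1.78 in A-375 total knockout cells (0.799) in the authors' deposited table. Both A-375 errors stood at the 99.8 percentile of SEs in their tables, although the means of 354 and 174 normalized counts exceeded those of MARCH8, whose errors were 0.30 and 0.32 in the authors' deposited table. The 95% interval in the A-375 total knockout ran from -2.61 to 4.36, so it left out neither a large rise nor a large fall. The A-375 total and long-form fits may share control libraries. The span of MARCH4 also overlaps 2 antisense genes on the other strand, which had no values. Overlap of their exons was not computed, and an effect on the MARCH4 values was not tested.

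Levels were compared between members as mean normalized count per kilobase of the longest annotated transcript, within a table. In UM-UC-3, MARCH4 was the highest (1038), followed by MARCH6 (971), MARCH5 (708), MARCH7 (681), MARCH9 (388), MARCH3 (177) and MARCH8 (95.9). In both A-375 tables MARCH6 was first, at 1479 in the long-form and 521 in the total table, and MARCH3 was last, at 12.7 and 4.98. MARCH6 made up 23.9% of the summed level of the 7 genes in UM-UC-3, against 46.2% and 47.6% in the A-375 long-form and total tables. MARCH4 made up 25.6% in UM-UC-3, and 2.49% and 3.58% in the A-375 tables. Relative to MARCH5 in the same table, MARCH4 stood at 1.47 in UM-UC-3, against 0.135 in A-375 long-form and 0.179 in A-375 total. MARCH3 stood at 0.250 of MARCH5 in UM-UC-3, against 0.0215 and 0.0227. These levels pool knockout with control libraries, so the MARCH3 value in UM-UC-3 includes the knockout libraries in which it was at 0.389 of the control level. No spread over libraries could be given for these levels, so the order of near neighbours, such as MARCH5 and MARCH7, is not established. These 2 genes changed places in all 3 tables when the union of exons was used as the length.

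**Figure D2:**
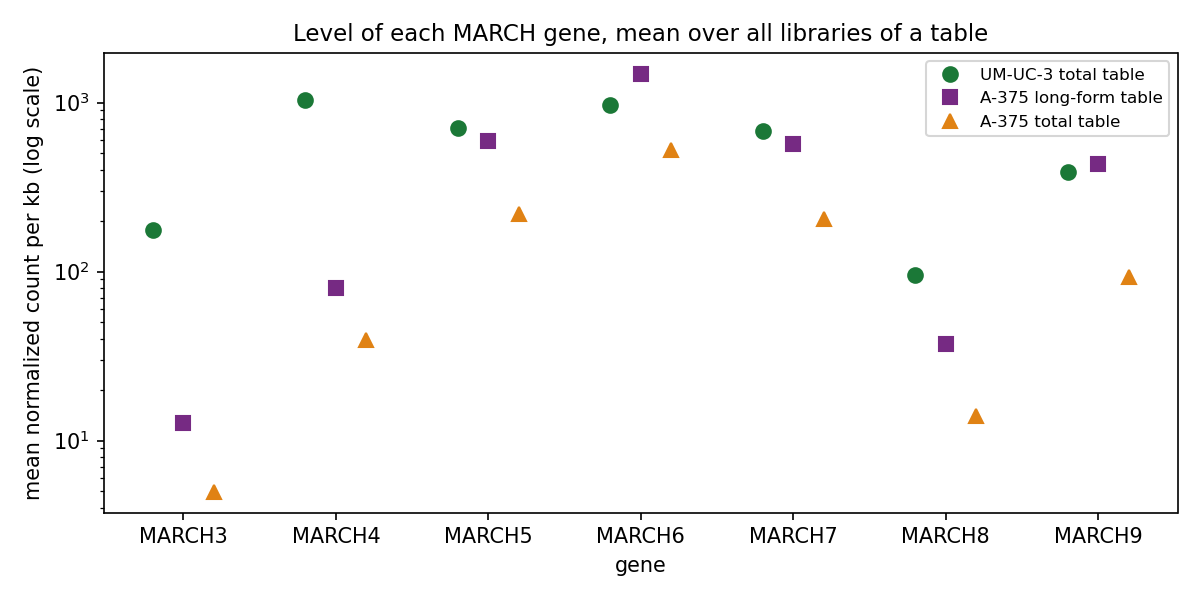
Mean normalized count per kilobase of transcript (log axis) of each MARCH gene in the UM-UC-3 total, A-375 long-form and A-375 total tables, as means over knockout and control libraries together. Tables were scaled separately, so heights compare within a table only. MARCH4 is first in UM-UC-3 at 1038, and MARCH3 is last in both A-375 tables.

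The responses of the 2 cell lines were compared as UM-UC-3 minus A-375 total knockout, a difference between fits that share no library, and tested against a normal distribution with adjustment over 12640 genes. For MARCH3 the difference was -1.44 ± 0.53 (SE; p 0.00665, adjusted p 0.0568). After each table was centred on its median it was -1.52 with an adjusted p of 0.0426. MARCH9 differed by 1.03 ± 0.41 (p 0.0118, adjusted p 0.0803). MARCH6, whose estimates had opposite signs in the 2 lines, differed by 0.40 ± 0.22 (p 0.0646, adjusted p 0.226). Thus 0 of 7 members passed at an adjusted p of 0.05, 2 had an unadjusted p under 0.05, and the background was 10.4%. The 95% interval of the MARCH8 difference ran from -0.16 to 1.23, and that of the MARCH5 difference from -0.43 to 0.28. The change of MARCH8 in UM-UC-3 and that of MARCH9 in A-375 were therefore not shown to be limited to 1 line.

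In A-375, the long-form and the total knockout were compared in the same way over 13949 genes. The SE of this difference is too large if the fits share controls. MARCH9 gave the clearest difference, long-form minus total, of 1.16 ± 0.43 (p 0.00675, adjusted p 0.0948). MARCH3 differed by -0.98 ± 0.58 (adjusted p 0.347). With a background of 4.45%, 0 of 7 members passed and 1 had an unadjusted p under 0.05. The difference of MARCH5 was 0.00 ± 0.17 and that of MARCH6 0.01 ± 0.19, with 95% intervals from -0.34 to 0.34 and from -0.37 to 0.38.

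**Figure D3:**
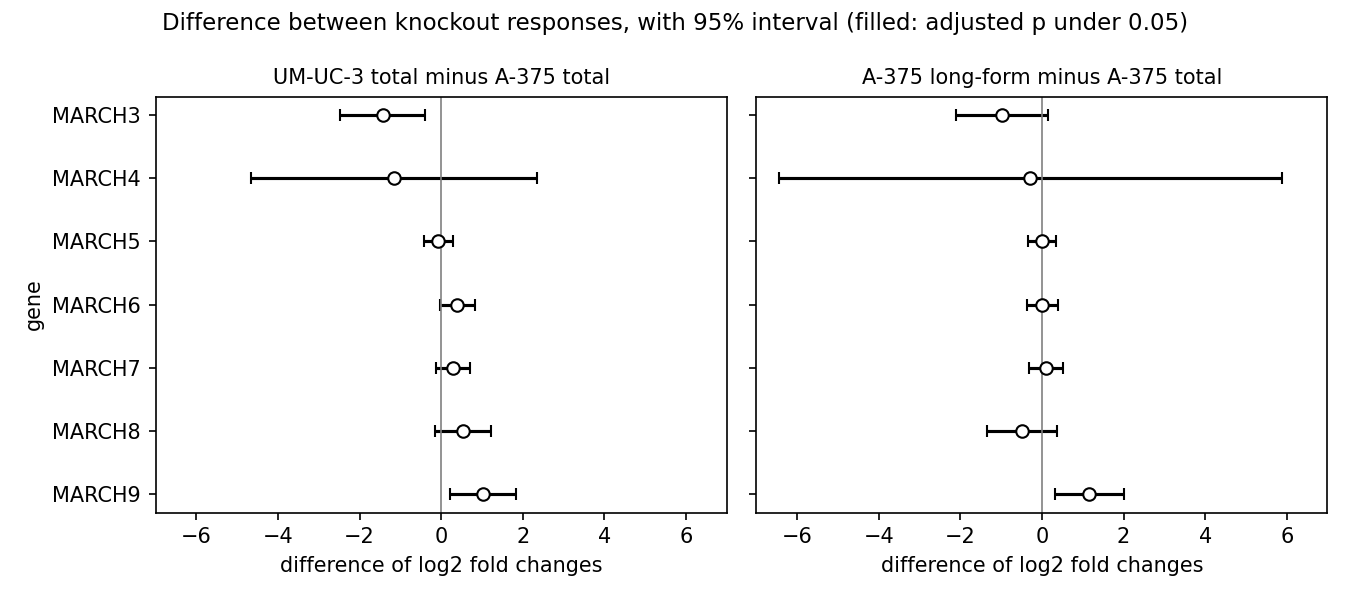
Difference of log2 fold changes for each MARCH gene (points) with its 95% interval (bars), UM-UC-3 total minus A-375 total on the left and A-375 long-form minus A-375 total on the right. No point is filled, since none passed an adjusted p of 0.05. MARCH3 at -1.44 on the left and MARCH9 at 1.03 and 1.16 have intervals that leave out 0.

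Genes next to the 3 called members were looked up after the values of the family had been seen. The nearest measured coding gene below MARCH3, LMNB1, lies 30694 bases away. LMNB1, which encodes a protein of the nuclear lamina, was lower in UM-UC-3 total knockout cells (-1.29 ± 0.24, adjusted p 2.97e-06; the authors' deposited table). It had 0.32 ± 0.21 in A-375 long-form (adjusted p 0.574) and -1.14 ± 0.74 in A-375 total knockout cells (adjusted p 0.325; the authors' deposited table), where MARCH3 had -0.90 and 0.08. C5orf63, 11750 bases above MARCH3, had no UM-UC-3 entry. It was lower in A-375 total knockout cells (-3.12 ± 1.00, adjusted p 0.0232; the authors' deposited table), at a mean of 14.2 normalized counts. ZFAND4, 20595 bases above MARCH8, had 0.33 ± 0.19 in UM-UC-3 total (adjusted p 0.190) and -0.18 ± 0.47 in A-375 total knockout cells (adjusted p 0.848; the authors' deposited table). ZNF22, 449259 bases below MARCH8, had no UM-UC-3 entry and was lower in A-375 total knockout cells (-1.18 ± 0.27, adjusted p 0.000777; the authors' deposited table). MARCH9 overlaps 916 bases of CDK4, a cell-cycle kinase on the opposite strand, with 0 bases of exon on exon. CDK4 was lower in UM-UC-3 total (-0.48 ± 0.16, adjusted p 0.01004) and had -0.38 ± 0.15 in A-375 total knockout cells (adjusted p 0.0829; the authors' deposited table). TSPAN31, 4887 bases below MARCH9, was higher in UM-UC-3 total (0.62 ± 0.19, adjusted p 0.00804) and had 0.39 ± 0.28 in A-375 total knockout cells (adjusted p 0.386; the authors' deposited table). CYP27B1, 1927 bases above MARCH9, had 0.31 ± 0.26 in UM-UC-3 total (adjusted p 0.391) and -0.74 ± 0.32 in A-375 total knockout cells (adjusted p 0.111; the authors' deposited table). The part of these neighbours in the values of the MARCH genes was not tested.

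Genes with a similar pattern were sought by Euclidean distance between the log2 fold changes of the 3 comparisons, among 9204 genes whose mean normalized count reached 100 everywhere. The nearest genes to MARCH3 were U2AF1 (distance 0.346) and PSMB3 (0.387). For MARCH8 they were CRY2 (0.0696) and FAM83G (0.0915), and for MARCH9 LEF1 (0.139) and SASS6 (0.162). For MARCH4 they were ICK (0.104) and WNT5A (0.150), and for MARCH5 DDX49 (0.0242) and DDX51 (0.0266). HS2ST1 (0.0446) and TOP1MT (0.0569) were nearest to MARCH6, and CCDC43 (0.00849) and FXR2 (0.0200) to MARCH7. With 3 comparisons, of which 2 come from the same line, such distances describe the values and no more.

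Genes around the family were described in 5 lists, with log2 fold changes ± SE. The list of E2 enzymes held 16 genes, all measured. In UM-UC-3 total knockout cells 2 were higher and 4 lower (37.5% called, against 31.1% of all genes), while 0 passed the authors' DESeq2 test in either A-375 table. Their median was -0.00 in UM-UC-3 total, 0.21 in A-375 long-form and -0.04 in A-375 total knockout cells, beside the medians of 0.03, 0.02 and -0.05 over all genes. UBE2G2, the E2 enzyme that works with MARCH6, fell in UM-UC-3 (-0.69 ± 0.12, adjusted p 8e-07; the authors' deposited table). UBE2J2, the other E2 enzyme of MARCH6, had -0.12 ± 0.13 there (adjusted p 0.492; the authors' deposited table). UBE2N and UBE2V1, which pair to build signalling ubiquitin chains, fell by 0.42 ± 0.09 and 0.41 ± 0.09 in log2 in UM-UC-3 (adjusted p 8.82e-05 and 0.000137; the authors' deposited table). UBE2L3 fell by 0.43 ± 0.12 in log2 (adjusted p 0.00225; the authors' deposited table).

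Of 18 genes of the mitochondrial outer membrane and its dynamics, where MARCH5 acts, 3 were higher and 4 lower in UM-UC-3 (38.9% called, background 31.1%), and 1 was higher and 1 lower in A-375 total knockout cells (11.1%, background 10.8%). The list's median was -0.01 in UM-UC-3 total, 0.07 in A-375 long-form and -0.02 in A-375 total. FIS1, a fission adaptor and a known MARCH5 target, fell by 1.19 ± 0.14 in log2 in UM-UC-3 (adjusted p 4.96e-15; the authors' deposited table). BCL2L11, which encodes the death activator BIM, rose by 0.76 ± 0.15 (adjusted p 1.04e-05), MIEF1, an adaptor of the fission GTPase, by 0.30 ± 0.09 (adjusted p 0.00417) and the import receptor TOMM20 by 0.37 ± 0.12 (adjusted p 0.00803; the authors' deposited table). In A-375 total knockout cells the death effector BAX rose by 0.80 ± 0.20 (adjusted p 0.00296; the authors' deposited table). The fission GTPase DNM1L fell by 0.36 ± 0.13 in log2 there (adjusted p 0.0467; the authors' deposited table), a call lost after centring on the table's median. In A-375 long-form knockout cells 0 of 18 passed.

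Around MARCH6, 19 of 20 listed genes of ER-associated degradation and sterol synthesis were measured. Of these, 4 were higher and 4 lower in UM-UC-3 (42.1% called, background 31.1%), 0 were called in A-375 long-form and 1 was higher in A-375 total knockout cells (5.26%, background 10.8%). The medians were 0.07, 0.08 and 0.15 in the same tables. UBE2G2, described above, belongs to this list too. SEL1L, the scaffold of the HRD1 ligase, rose by 1.03 ± 0.19 (adjusted p 1.56e-06) and the lipid droplet protein PLIN2 by 0.86 ± 0.16 (adjusted p 2e-06) in UM-UC-3 in the authors' deposited table. DERL1, a channel component, fell by 0.54 ± 0.12 in log2 (adjusted p 8.82e-05; the authors' deposited table). NPLOC4, a cofactor of the extraction ATPase VCP, rose by 0.37 ± 0.12 in A-375 total knockout cells (adjusted p 0.0235; the authors' deposited table). The MARCH6 target SQLE had -0.01 ± 0.14 in UM-UC-3 total, 0.08 ± 0.14 in A-375 long-form and 0.18 ± 0.21 in A-375 total knockout cells in the authors' deposited table.

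Of 20 surface and endosomal proteins listed as targets of MARCH3, MARCH4, MARCH8 or MARCH9, 17 were measured in UM-UC-3 and 18 in A-375. In UM-UC-3, 5 were higher and 3 lower (47.1% called, background 31.1%), or 4 and 4 after centring on the table's median. The list's median was 0.11 in UM-UC-3 total, -0.07 in A-375 long-form and 0.33 in A-375 total knockout cells. HLA-B rose by 1.53 ± 0.33 (adjusted p 5.23e-05), HLA-C by 0.67 ± 0.17 (adjusted p 0.000794) and the adhesion protein ICAM1 by 1.85 ± 0.50 (adjusted p 0.00173; the authors' deposited table). ICAM1 was low there, at a mean of 46.6 normalized counts, against a median of 1370 over all genes. The tetraspanin CD151 fell by 0.73 ± 0.14 in log2 (adjusted p 5.76e-06; the authors' deposited table). In A-375 total knockout cells 5 were higher and 0 lower, or 27.8% called, against a background of 10.8%. The death receptor FAS rose by 1.49 ± 0.41 (adjusted p 0.00580; the authors' deposited table). HLA-B rose by 1.85 ± 0.55 (adjusted p 0.0144) and HLA-C by 1.24 ± 0.42 (adjusted p 0.0341; the authors' deposited table). CD151 rose by 0.61 ± 0.21 (adjusted p 0.0417; the authors' deposited table). HLA genes are closely related paralogs that can share reads. TFRC, the transferrin receptor that MARCH8 removes from the surface, had 0.11 ± 0.20 in UM-UC-3 total (adjusted p 0.718) in the authors' deposited table. All these values are of RNA, whereas MARCH ligases act on proteins. The part of the MARCH genes in the values of this list was not tested. In A-375 long-form knockout cells 0 of 18 passed.

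Of 30 other membrane-anchored RING ligases, 24 were measured in UM-UC-3, and 5 were higher and 3 lower there (33.3% called, background 31.1%), or 4 and 4 after centring. The list's median was 0.12 in UM-UC-3 total, 0.01 in A-375 long-form and 0.15 in A-375 total knockout cells. RNF167, an endosomal ligase, rose by 0.65 ± 0.14 (adjusted p 3.9e-05), RNF170 of the ER by 0.65 ± 0.15 (adjusted p 0.000286) and RNF19B by 0.70 ± 0.20 (adjusted p 0.00256; the authors' deposited table). RNFT2 fell by 0.85 ± 0.28 in log2 (adjusted p 0.0130; the authors' deposited table). In A-375, 28 were measured, of which 0 were called in the long-form and 1 in the total knockout (3.57%, background 10.8%), RNF128, which rose by 1.59 ± 0.48 (adjusted p 0.0158; the authors' deposited table).

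**Figure D4:**
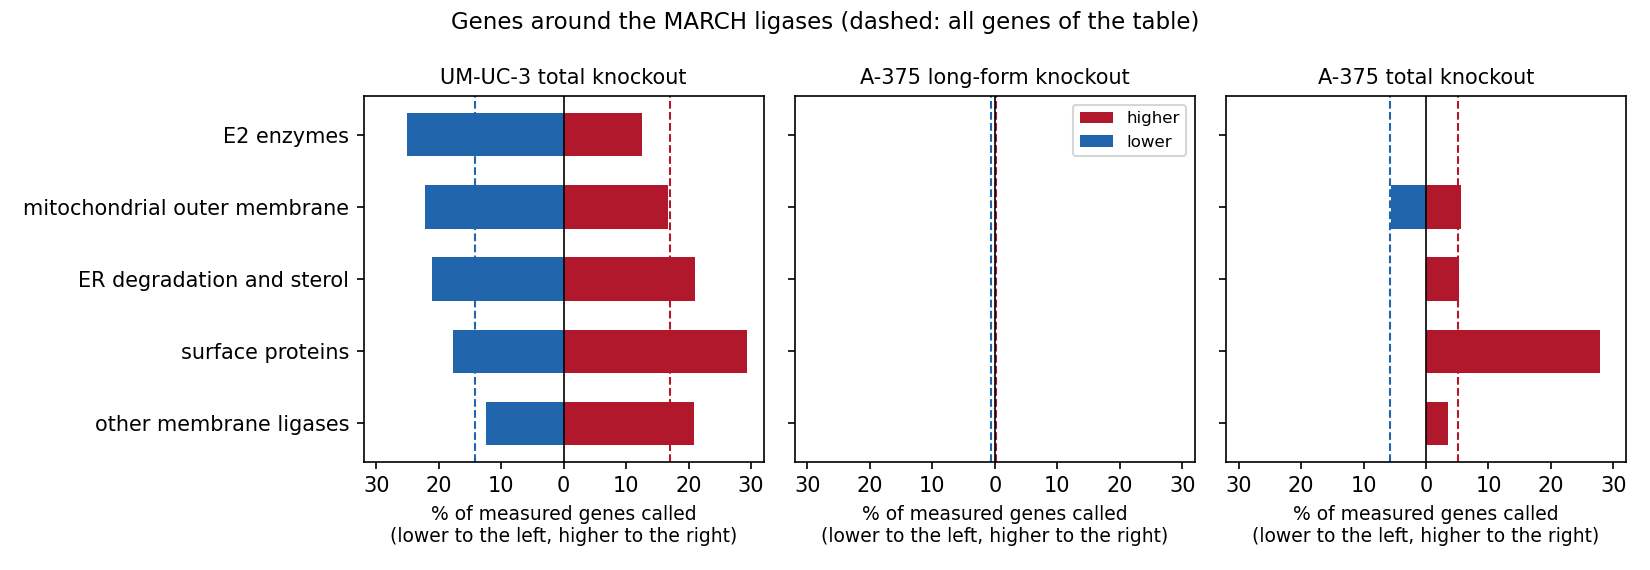
Share of the measured genes of each list that passed an adjusted p of 0.05, lower to the left and higher to the right of 0, in 1 panel for each knockout. Dashed lines give the same shares over all genes of the table (UM-UC-3 total 17% higher and 14.2% lower, A-375 long-form 0.24% and 0.664%, A-375 total 5.07% and 5.74%). The surface proteins reach 27.8% higher in A-375 total knockout cells.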

How the data were processed

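RNA was sequenced from 33 libraries, grouped by the labelled cell line and genotype. The submitters' processing notes list the build hg38 and the tools DESeq2, HISAT2, StringTie and SAMtools, and give no versions. The authors deposited 3 tables of DESeq2 output. Their signal column is the base mean over all samples, per the file headers, which in DESeq2 is the mean of counts divided by size factors. Per the file headers, the log2 values are treatment over control fold changes, each with a standard error. The deposited score column is the Wald statistic, and the deposited p-value columns hold its p-value, that value after Benjamini-Hochberg correction, and a q-value. Recomputed adjusted p-values differed from the deposited ones by at most 1.51e-05.

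Calls used the authors' adjusted p, with a threshold of 0.05. Background shares cover genes with an adjusted p (13310, 14156 and 14330). Differences between tables were tested as the difference over the root of the summed squared standard errors, with a two-sided normal p adjusted over genes whose means reached 10 in each of the 2 tables. The code of the test was run on simulated differences, drawn as independent normal values with the deposited standard errors. Since the test assumes the same, that run cannot check the standard errors or the effect of shared controls. Implied levels were solved from the table mean, the fold change and the library numbers. Lengths and places are from GENCODE 29 and promoters from RefSeq GRCh38.p14, matched through the current MARCHF symbols. Python 3.11.15 with pandas 2.3.3, NumPy 2.4.6 and SciPy 1.17.1 was used.

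The members, the 5 gene lists and the tests were chosen with earlier results of these data known. Named genes are all members, up to 4 called genes with the smallest adjusted p for each list and table, the 2 genes nearest in pattern to each member, and GABPB1L with GABPB1S. Cell type markers and the other GABP entries, CD151 in A-375, neighbouring and overlapping genes, SQLE, TFRC and UBE2J2, outside this rule, were chosen after their values were seen. Of the genes that the rule names, 1 is not reported here. Alternatives were the q-value, a threshold of 0.01, adjustment over genes whose mean reached 10, centring, no filter on low means, the exon union as length and other numbers of controls.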

Additional observations from a re-analysis of the deposited data

Results flagged for a closer look

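No MARCH gene differed between the cell lines at an adjusted p of 0.05 as deposited. Of 85 genes in the 5 lists around them, 12 did (14.1%, against 10.4% of all genes), by the difference UM-UC-3 minus A-375 total knockout with Benjamini-Hochberg adjustment. BAX, CD151 and NPLOC4 were called in opposite directions, lower in UM-UC-3 and higher in A-375, with differences of -1.13 ± 0.24 (SE; adjusted p 0.000324), -1.34 ± 0.26 (4.57e-05) and -0.70 ± 0.16 (0.000816). BCL2L11 differed by 1.12 ± 0.25 (adjusted p 0.000678) and SEL1L by 0.81 ± 0.24 (0.0159). FIS1 differed by -0.87 ± 0.27 (adjusted p 0.0218) and UBE2G2 by -0.48 ± 0.17 (0.0412). ALCAM differed by -1.25 ± 0.36 (adjusted p 0.0120), CD81 by -0.71 ± 0.17 (0.00197) and VCP by -0.77 ± 0.22 (0.00940). UBE2G1 differed by 0.62 ± 0.20 (adjusted p 0.0246) and ZNRF2 by 0.92 ± 0.32 (0.0474). ALCAM, CD81, VCP, UBE2G1 and ZNRF2 were named after their values were seen.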

How the results depend on the processing

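At a threshold of 0.01 the A-375 total knockout had 0 members called in place of 1, since MARCH9 has an adjusted p of 0.0122 in the authors' deposited table. After each table was centred on its median, the difference between cell lines was called for 1 member, MARCH3, in place of 0. By the q-value MARCH7 joined MARCH3 and MARCH8 in UM-UC-3. The other 11 of 12 alternative member counts and 3 of 4 difference counts stayed within 1.5 times, and no fold change of a called member changed sign. Of 30 list counts, 1 moved beyond 1.5 times with centring, the lower count of the mitochondrial outer membrane list in A-375 total, to 0. Smaller changes came with centring too. In UM-UC-3 the higher count went from 4 to 3 for ER degradation and sterol. For surface proteins and for other ligases there, the higher count went from 5 to 4 and the lower from 3 to 4. In A-375 total the higher count of surface proteins went from 5 to 6. Ranks by level moved for MARCH5 and MARCH7 only. No paired analysis was possible because the deposited tables hold no values per library, and leaving out a replicate could not be run for the same reason.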
